A study of Mus musculus with 9 samples.

Results

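The 10 genes described here control the G1 phase of the cell cycle and were followed across 9 RNA sequencing libraries of mouse embryonic stem (ES) cells. They encode the D-type cyclins (Ccnd1, Ccnd2 and Ccnd3), the E-type cyclins (Ccne1 and Ccne2), their kinases (Cdk4, Cdk6 and Cdk2), the kinase inhibitor p27 (Cdkn1b) and the transcription factor E2f1. The genes were chosen by symbol, each matched exactly 1 of the 37310 gene rows of the count files, and all 10 were among the 16224 genes that passed the filter on low counts and were tested.

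All cells came from the E14 parental line, were grown without feeder cells in serum and LIF, and were profiled at 72 h. EtOH controls carried floxed Zbtb11 alleles (Zbtb11lox/lox) with ERt2-Cre at the Rosa26 locus and were given only the carrier, ethanol. Libraries labelled Zbtb11 KO had that same genotype but were given 250 nM 4-hydroxytamoxifen (4OHT), the ligand that turns on ERt2-Cre. 4OHT controls were Zbtb11WT/WT with a wild-type Rosa26 locus at the same dose. EtOH and 4OHT controls thus differ both by cell line and by drug, which cannot be told apart. KO-labelled libraries differ from EtOH controls by 4OHT itself as well as by its action on ERt2-Cre. From 4OHT controls they differ by cell line and genotype, so neither comparison isolates the deletion. There were 3 libraries per group. The labels give neither the number of clones behind a line nor separate cultures for the replicates, and a p-value here covers the spread of these libraries alone, some of which may be technical.

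Gene counts per library ran from 16909139 to 23544893. Reads that fell in no gene were 26.4% to 28.7% in EtOH controls, 32.7% to 33.8% in KO-labelled libraries and 26.7% to 27.5% in 4OHT controls. That share moved with the group, and its part in the results was not tested. KO replicate 3 stood further from its group than any other library (chi-square per gene 15.8 and 16.8, against 4.99 to 7.56 in the pairs without it). Zbtb11 itself had 355 ± 6.70 CPM (counts scaled to library size with TMM factors) in EtOH controls, 377 ± 8.47 in KO-labelled libraries and 368 ± 9.31 in 4OHT controls (SD, n = 3). Its count over the whole gene was thus not lower where the label says KO. Such a count can hold reads from exons that Cre leaves in place, and the floxed exons are not named in the sources used here, so it is no check on the labels.

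In most cells, D-type cyclins rise with growth signals and activate Cdk4 and Cdk6, E-type cyclins activate Cdk2, and these kinases phosphorylate the retinoblastoma (pocket) proteins, which releases E2F factors to switch on the genes of DNA synthesis. The inhibitor p27 binds cyclin-kinase complexes and restrains Cdk2. Mouse ES cells are known for a short G1 phase and for cyclin E and Cdk2 activity that varies little over the cycle.

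Against EtOH controls, 5 of the 10 genes fell in KO-labelled libraries and none rose (edgeR quasi-likelihood test, Benjamini-Hochberg adjusted p under 0.05). These were Cdk6 (log2 fold change -0.82), Cdk2 (-0.72), Ccne1 (-0.56), Ccnd3 (-0.45) and Ccnd1 (-0.32). Of all genes tested, 14.2% fell, 13.0% rose and 27.2% changed in either direction by the same rule. With the replicate number as a block 7 fell and none rose, where 42.8% of all genes changed. In 7 of the 10 every KO-labelled library was below every EtOH control, as in 20.5% of all genes tested, and in none was it above, as in 21.3%. The median log2 fold change was -0.39 over the 10 genes and 0.01 over all genes tested. With library totals as the only scaling 5 of the 10 fell too, while among all genes 3038 rose and 1527 fell (66.5% rises), against 2110 and 2307 with TMM scaling (47.8% rises). Without KO replicate 3 there were also 5 falls, with Cdkn1b called and Ccnd1 not. In bulk libraries such as these, fewer cells of a kind and less RNA per cell cannot be told apart.

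**Figure D1:**
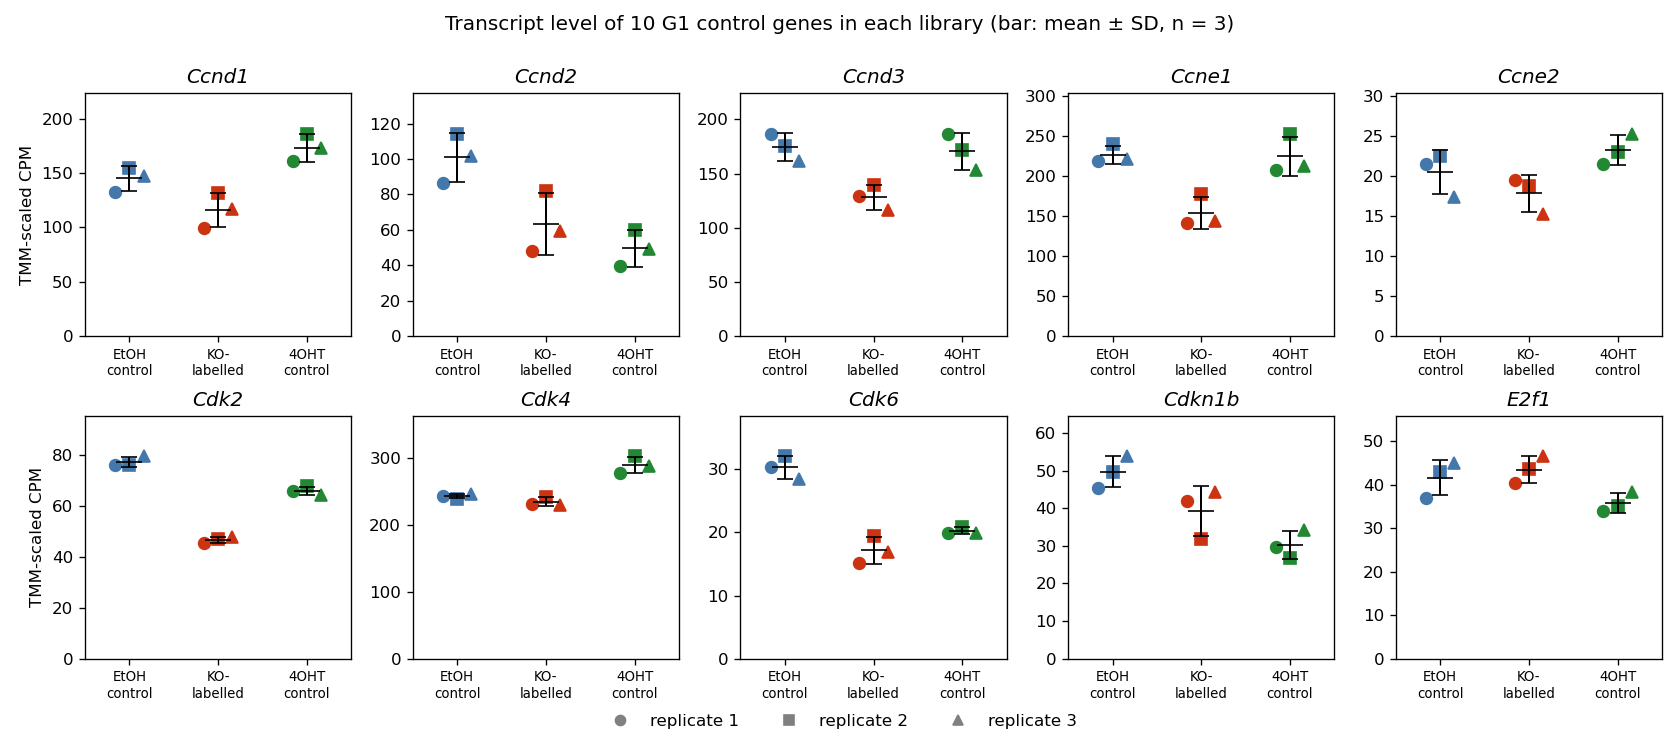
TMM-scaled CPM (vertical axes, from 0) of each gene in the 9 libraries, by group; symbols mark the replicate number, the long bar the mean and the whiskers 1 SD (n = 3). Cdk2, Cdk6, Ccne1 and Ccnd3 are lower in all 3 KO-labelled libraries than in all 3 EtOH control libraries, whereas Cdk4 and E2f1 overlap.

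Cdk2 (ENSMUSG00000025358.9), the partner kinase of the E-type cyclins, gave the smallest adjusted p of the 10 genes. It had 75.9, 76.0 and 79.4 CPM in replicates 1, 2 and 3 of EtOH controls, 45.4, 46.9 and 47.7 CPM in KO-labelled libraries and 65.7, 67.6 and 64.4 CPM in 4OHT controls. The 3 groups did not overlap, with KO-labelled libraries lowest and 4OHT controls between. Relative to EtOH controls the log2 fold change was -0.72 in KO-labelled libraries (SE 0.05, adjusted p = 5.43e-08) and -0.23 in 4OHT controls (adjusted p = 0.0066). Directly against 4OHT controls the KO value was -0.50 (SE 0.05, adjusted p = 2.82e-06).

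Cdk4 and Cdk6 are the kinases of the D-type cyclins, and their levels followed different patterns. Cdk4 (ENSMUSG00000006728.6) had 243, 239 and 246 CPM in EtOH controls, 231, 242 and 229 CPM in KO-labelled libraries and 278, 302 and 288 CPM in 4OHT controls. KO-labelled and EtOH libraries overlapped, and 4OHT controls were above both. Accordingly, Cdk4 was not called against EtOH controls (log2 fold change -0.05, 95% interval -0.15 to 0.05, adjusted p = 0.466; 0.02 with library totals). Against 4OHT controls it fell by 0.31 on the log2 scale (adjusted p = 0.000142), and in 4OHT controls it rose by 0.25 against EtOH controls (adjusted p = 0.00172).

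Cdk6 (ENSMUSG00000040274.5) had 30.4, 32.1 and 28.4 CPM in EtOH controls, 15.2, 19.5 and 16.9 CPM in KO-labelled libraries and 19.97, 20.9 and 19.9 CPM in 4OHT controls. Both groups that received 4OHT were therefore below EtOH controls, and no 2 groups overlapped. Its log2 fold change was -0.82 in KO-labelled libraries (SE 0.09, adjusted p = 6.53e-06) and -0.58 in 4OHT controls (SE 0.09, adjusted p = 0.000262), each against EtOH controls. Between KO-labelled libraries and 4OHT controls the value was -0.24 (adjusted p = 0.0505), which was called with the replicate number as a block (adjusted p = 0.00635), with RLE factors (0.043), without a filter on low counts (0.050) and without KO replicate 2 (0.0087).

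Promoter windows of 300 bases, from 250 before to 50 after a start site, were taken from RefSeq (GRCm38.p6, another build than the mm9 named for the files). They matched 7 of the 10 genes with 8 windows. The motifs searched on both strands were the E2F site (TTTCCCGC, TTTGGCGC, TTTCGCGC or TTTGCCGC), the E-box CACGTG bound by Myc family proteins, the ETS site CCGGAAGT and the cell cycle element TTTGAA. An E2F site lay in the window of 1 gene, Cdk2, and in 2.26% of all 32851 windows of this length. E-boxes lay in the windows of 2 genes, with 4 in that of Cdk4 and 1 in that of Cdk6, and in 7.15% of all windows. The ETS and TTTGAA letters were in none of the 8 windows, against 3.89% and 17.9% of all windows. The windows of Cdk2 (E2F site) and Cdk4 (4 E-boxes) are shown with those motif letters in capitals. They were picked with the calls against EtOH controls known (Cdk2 fell, Cdk4 was not called). Cdk6, with 1 E-box, fell too (log2 fold change -0.82), and a link of motifs to changes was not tested. The Cdk2 window is chr10:128705002-128705301 on the minus strand and the Cdk4 window chr10:127063285-127063584 on the plus strand.
Cdk2: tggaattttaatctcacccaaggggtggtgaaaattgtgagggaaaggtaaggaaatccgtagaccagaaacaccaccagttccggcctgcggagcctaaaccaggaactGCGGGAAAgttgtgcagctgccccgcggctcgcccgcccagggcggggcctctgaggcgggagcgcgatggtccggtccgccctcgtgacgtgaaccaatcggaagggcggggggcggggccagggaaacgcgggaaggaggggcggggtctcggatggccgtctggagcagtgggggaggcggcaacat
Cdk4: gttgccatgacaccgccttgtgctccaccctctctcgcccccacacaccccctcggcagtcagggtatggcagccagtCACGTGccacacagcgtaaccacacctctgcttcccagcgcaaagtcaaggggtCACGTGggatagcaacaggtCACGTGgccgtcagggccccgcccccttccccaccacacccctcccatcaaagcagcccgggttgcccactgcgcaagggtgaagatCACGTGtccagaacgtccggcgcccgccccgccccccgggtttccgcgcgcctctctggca
A match describes the letters only, and no binding was measured in these libraries. A window without a match does not show that the gene lacks such a site. Variant letters and bases outside these windows were not searched.

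**Figure D2:**
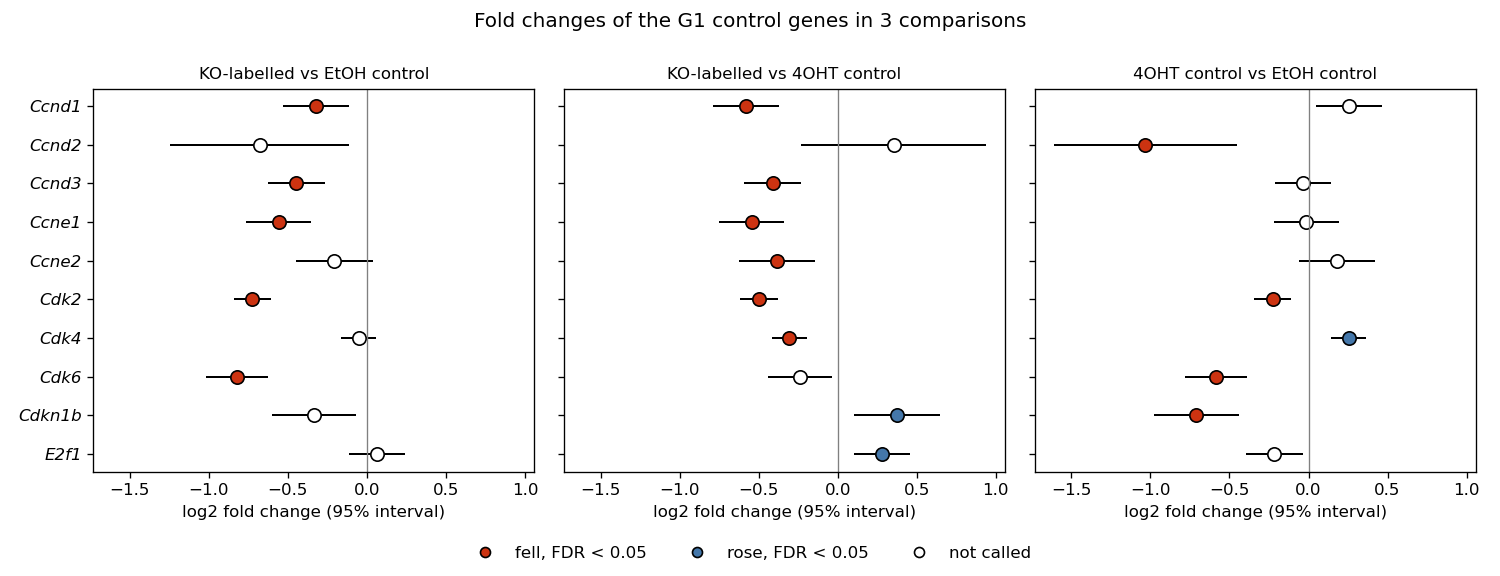
Log2 fold change (horizontal axis) with its 95% interval for each gene in 3 comparisons; filled points passed the adjusted p of 0.05 (red fell, blue rose) and open points did not. Cdk2 lies below 0 in every panel, and Cdk4 passes only against or in 4OHT controls.

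Among the D-type cyclins, Ccnd3 (ENSMUSG00000034165.8) had 187, 175 and 162 CPM in EtOH controls, 129, 139 and 116 CPM in KO-labelled libraries and 187, 171 and 153 CPM in 4OHT controls. All KO-labelled libraries were below all control libraries, and the controls overlapped. It fell by 0.45 on the log2 scale against EtOH controls (SE 0.08, adjusted p = 0.00109) and by 0.41 against 4OHT controls (adjusted p = 0.00112), and these comparisons share the KO-labelled libraries. The controls differed by -0.04 (95% interval -0.21 to 0.14, adjusted p = 0.815).

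Ccnd1 (ENSMUSG00000070348.4), the D-type cyclin most tied to growth factor signals, had 133, 155 and 147 CPM in EtOH controls, 99.4, 131 and 117 CPM in KO-labelled libraries and 161, 186 and 173 CPM in 4OHT controls. KO-labelled libraries were lowest and 4OHT controls highest, with no overlap between any groups. Ccnd1 fell by 0.32 against EtOH controls (SE 0.09, adjusted p = 0.0213) and by 0.58 against 4OHT controls (SE 0.09, adjusted p = 0.000326). The first of these calls was lost without EtOH replicate 2 (adjusted p = 0.089) or 3 (0.063) and without KO replicate 1 (0.058) or 3 (0.054). In 4OHT controls its level was not called against EtOH controls (0.26, adjusted p = 0.0748; 5.4e-06 with the replicate block, 0.045 with DESeq2, 0.020 in the fit of the groups compared, 0.00089 unfiltered, and 0.024 or 0.042 with KO replicate 1 or 2 left out).

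Ccnd2 (ENSMUSG00000000184.9), another D-type cyclin, had the largest standard errors of the 10 genes. It had 86.7, 114 and 102 CPM in EtOH controls, 47.9, 82.1 and 59.4 CPM in KO-labelled libraries and 39.4, 60.0 and 49.0 CPM in 4OHT controls. Both groups with 4OHT were below EtOH controls, and they overlapped each other. In 4OHT controls Ccnd2 fell by 1.03 on the log2 scale against EtOH controls (SE 0.24, adjusted p = 0.0271), a call lost without EtOH replicates 2 (0.083) or 3 (0.072) or 4OHT control replicates 1 (0.074) or 3 (0.083). In KO-labelled libraries its log2 fold change was -0.68 (SE 0.24, adjusted p = 0.0761), which passed with the replicate block (1.97e-10), with DESeq2 (0.031), without a filter on low counts (3.3e-22) and without KO replicate 2 (0.020). Against 4OHT controls it was 0.35 (95% interval -0.22 to 0.93, adjusted p = 0.300; 2.15e-05 with the replicate block and 4.6e-06 without a filter on low counts).

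Divided by the length of their exons, the D-type cyclins made up different shares of their summed level. Ccnd1 accounted for 50.1% ± 1.91 in EtOH controls, 53.6% ± 2.21 in KO-labelled libraries and 59.8% ± 2.35 in 4OHT controls (SD, n = 3). Ccnd2 accounted for 17.4% ± 1.54, 14.4% ± 2.10 and 8.52% ± 1.38 in the same order. The share of Ccnd3 was 36.3%, 30.8% and 30.4% in EtOH replicates 1, 2 and 3, 36.0%, 30.3% and 29.8% in KO-labelled libraries and 35.7%, 29.9% and 29.4% in 4OHT controls. Over replicate numbers it spread more widely than the groups differed, but within replicate numbers it was lower in KO-labelled libraries than in EtOH controls in 3 of 3 pairs (mean difference -0.47 ± 0.12 percentage points, SD). The Ccnd3 share was lower still in 4OHT controls, by -0.82 ± 0.24 points against EtOH controls, also in 3 of 3 pairs. KO-labelled libraries lay above 4OHT controls by 0.36 ± 0.12 points in 3 of 3 pairs. Each of these differences had a two-sided exact sign-flip permutation p of 0.25. For Ccnd2 4OHT controls did not overlap the other groups (two-sided exact permutation p = 0.1 each, the smallest that 3 against 3 can give), whereas the KO-labelled and EtOH libraries overlapped (exact p = 0.2). Within replicate numbers the KO minus EtOH difference was -2.98 ± 0.83 percentage points for Ccnd2 and 3.45 ± 0.85 for Ccnd1 (SD), each with 3 of 3 pairs on the same side (two-sided exact sign-flip permutation p = 0.25, the smallest that 3 pairs can give). With the longest transcript as length, Ccnd3 rather than Ccnd1 held the largest share in EtOH controls (45.3% against 38.8%) and in KO-labelled libraries (45.0% against 41.7%).

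**Figure D3:**
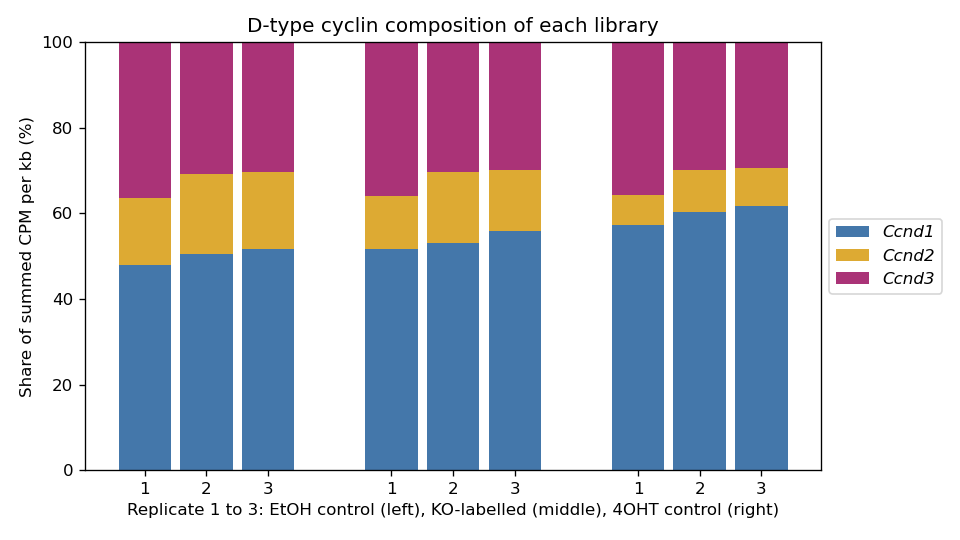
Share of each D-type cyclin (vertical axis, %) in the summed CPM per kb of exon, for each library; stacked bars add to 100%. The Ccnd2 band is narrowest in 4OHT controls (8.52% on average), and the Ccnd3 band is widest in replicate 1 of every group.

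Of the E-type cyclins, Ccne1 (ENSMUSG00000002068.10) had 219, 239 and 222 CPM in EtOH controls, 141, 177 and 143 CPM in KO-labelled libraries and 208, 253 and 213 CPM in 4OHT controls. KO-labelled libraries lay below both controls, which overlapped. The log2 fold change was -0.56 against EtOH controls (SE 0.09, adjusted p = 0.000822) and -0.54 against 4OHT controls (SE 0.09, adjusted p = 0.000529), and the controls differed by -0.01 (95% interval -0.21 to 0.18, adjusted p = 0.942).

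Ccne2 (ENSMUSG00000028212.10) was far lower, with 21.5, 22.5 and 17.4 CPM in EtOH controls, 19.4, 18.8 and 15.2 CPM in KO-labelled libraries and 21.5, 23.0 and 25.3 CPM in 4OHT controls. KO-labelled and EtOH libraries overlapped (log2 fold change -0.21, 95% interval -0.44 to 0.03, adjusted p = 0.189). Relative to 4OHT controls Ccne2 fell by 0.38 (adjusted p = 0.0127), a call lost without KO replicate 3 (0.051) or 4OHT control replicate 3 (0.056). Per length, Ccne1 made up 93.6% ± 0.71 of the E-type cyclins in EtOH controls, 91.9% ± 1.16 in KO-labelled libraries and 92.6% ± 0.90 in 4OHT controls (SD, n = 3), so Ccne1 was the main E-type cyclin transcript in every group. That share was 93.0%, 93.3% and 94.4% in EtOH replicates 1, 2 and 3 and 90.5%, 92.5% and 92.5% in KO-labelled libraries, without overlap (two-sided exact permutation p = 0.1, the smallest possible). It overlapped between 4OHT controls and both other groups (exact p = 0.4 for KO-labelled libraries and 0.3 for EtOH controls).

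The inhibitor gene Cdkn1b (ENSMUSG00000003031.8) had 45.5, 49.7 and 53.8 CPM in EtOH controls, 41.8, 31.9 and 44.3 CPM in KO-labelled libraries and 29.7, 26.8 and 34.2 CPM in 4OHT controls. Both groups with 4OHT were below EtOH controls, and they overlapped each other. It fell by 0.71 on the log2 scale in 4OHT controls against EtOH controls (SE 0.12, adjusted p = 0.00159). In KO-labelled libraries the value was -0.34 (95% interval -0.59 to -0.08, adjusted p = 0.055), and it was called with the replicate block (0.000413), with DESeq2 (0.018), with RLE factors (0.046), without a filter on low counts (0.00019), in the fit of the groups compared (0.043) and without EtOH replicate 1 (0.046), KO replicate 3 (0.023) or 4OHT control replicate 2 (0.047) or 3 (0.033). Set beside 4OHT controls, Cdkn1b rose by 0.37 (adjusted p = 0.0293), a call that ended without KO replicate 1 or 3 (0.10 each) and without 4OHT control replicate 1 (0.085) or 2 (0.11).

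E2f1 (ENSMUSG00000027490.10), one of the E2F factors that activate S phase genes, had 37.0, 43.0 and 44.9 CPM in EtOH controls, 40.3, 43.6 and 46.5 CPM in KO-labelled libraries and 33.9, 35.0 and 38.4 CPM in 4OHT controls. KO-labelled and EtOH libraries overlapped (log2 fold change 0.06, 95% interval -0.11 to 0.23, adjusted p = 0.599), and the interval excludes a fall as large as that of Cdk2 or Ccne1. KO-labelled libraries lay above 4OHT controls without overlap, and E2f1 rose by 0.28 (adjusted p = 0.0127), which was lost without KO replicate 3 (0.057) or 4OHT control replicate 1 (0.052). The controls overlapped, with a log2 fold change of -0.22 (adjusted p = 0.079; 0.00229 with the replicate block, 0.022 without EtOH replicate 1 and 0.049 without a filter on low counts).

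Set against 4OHT controls, 6 of the 10 genes fell in KO-labelled libraries and 2 rose, where 38.9% of all genes tested changed (19.8% lower, 19.1% higher). With the block these were 7 and 3, where 51.4% of all genes changed. KO-labelled libraries lay wholly below in 7 genes (23.7% of all genes) and wholly above in 1 (24.5%). With library totals the counts were again 6 and 2, while over the whole table rises were 64.4% of calls against 49.1% with TMM. Leaving out KO replicate 3 left 5 falls and no rise, and leaving out 4OHT control replicate 1 left 6 falls and no rise. In 4OHT controls 4 genes fell and 1 rose against EtOH controls, where 18.4% of all genes changed (8.75% lower, 9.66% higher). With the block these were 5 and 2 (32.8% changed). The 4OHT controls lay wholly below in 4 genes (17.0% of all genes) and wholly above in 2 (18.1%). Ccnd3 and Ccne1 differed by -0.04 and -0.01 on the log2 scale between the controls, while Cdk6, Cdkn1b and Ccnd2 fell by 0.58, 0.71 and 1.03.

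Levels could be compared between genes only per length of exon. In EtOH controls Ccne1 (85.1 ± 4.18 CPM per kb) and Cdk4 (74.7 ± 1.05) were highest, followed by Ccnd1 (30.8 ± 2.39) and Ccnd3 (19.9 ± 1.44). E2f1 (13.2 ± 1.30) and Cdk2 (12.4 ± 0.32) did not differ beyond their spread, nor did Cdkn1b (10.9 ± 0.91) and Ccnd2 (10.7 ± 1.47). Ccne2 (5.86 ± 0.78) and Cdk6 (2.17 ± 0.13; SD, n = 3) were lowest. In KO-labelled libraries Cdk4 (72.1 ± 2.08) stood above Ccne1 (57.8 ± 7.51), and Cdk2 (7.51 ± 0.19) was closest to Ccnd2 (6.71 ± 1.85). Ranks depend on the length used: with the longest transcript Cdk4 (118 CPM per kb) was above Ccne1 (113) in EtOH controls too, Ccnd3 (45.3) above Ccnd1 (38.8), Cdk2 (23.6) above E2f1 (15.1) and Ccnd2 (15.9) above Cdkn1b (10.9). In 4OHT controls Cdk4 (89.1 ± 3.72) and Ccne1 (84.3 ± 9.21) lay within their spread per kb of exon, ahead of Ccnd1 (36.8 ± 2.70). With the longest transcript Cdk4 (141 CPM per kb) stood above Ccne1 (112) in 4OHT controls. Cdk4 made up 97.2% ± 0.20 of the summed per-length level of Cdk4 and Cdk6 in EtOH controls, 98.3% ± 0.17 in KO-labelled libraries and 98.4% ± 0.03 in 4OHT controls. EtOH controls did not overlap the other groups in that share (two-sided exact permutation p = 0.1 each), which overlapped each other (exact p = 0.6).

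Libraries with the same replicate number deviated together in several of these genes. Ccnd1 and Ccnd2 were lowest in replicate 1 and highest in replicate 2 of every group, with Ccnd2 from -0.36 to -0.21 and from 0.19 to 0.41 on the log2 scale about its group mean. Ccne1 was highest in replicate 2 (0.08 to 0.21) and E2f1 in replicate 3 (0.10 to 0.11) of every group, and Ccnd3 was lowest in replicate 3 (-0.15 to -0.11). Cdk2 ranged from -0.039 to 0.043 about its group means. The labels do not say what a replicate number stands for.

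**Figure D4:**
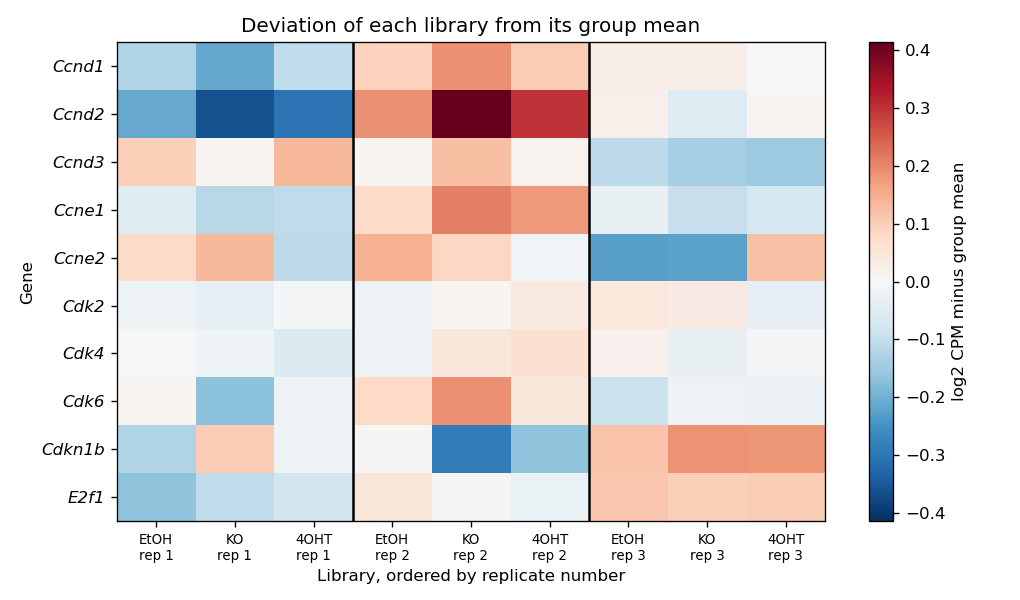
Log2 CPM of each gene in each library minus the mean of its group (colour, red above and blue below), with libraries ordered by replicate number. Ccnd2 runs from -0.36 to 0.41 with the same order in each group, and Cdk2 is near 0 throughout.

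Other genes of the pathway were taken from lists by role. Of the 5 other inhibitors of cyclin-dependent kinases tested, 3 rose and none fell against EtOH controls, where 13.0% of all genes rose and 14.2% fell (median log2 fold change 0.58). Cdkn1a, the gene of the p53 target p21, rose by 0.91 on the log2 scale (SE 0.09, adjusted p = 1.06e-06), with means of 28.7 ± 2.38 CPM in EtOH controls and 53.9 ± 4.74 CPM in KO-labelled libraries. Cdkn2b, which encodes the Cdk4 and Cdk6 inhibitor p15, went from 1.39 ± 0.09 to 3.37 ± 0.63 CPM (1.28, SE 0.25, adjusted p = 0.0014). Cdkn2a rose by 0.58 (adjusted p = 0.0389), a call that ended with DESeq2 (0.070), without EtOH replicate 2 (0.17) or 3 (0.078) and without KO replicate 3 (0.20). Compared with 4OHT controls these 3 genes rose by 1.04, 1.39 and 0.60, the last lost without KO replicate 3 (0.15) or any 4OHT control replicate (0.053 to 0.068), and 1 other of the 5 inhibitors fell, where 19.1% of all genes rose and 19.8% fell.

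Of 8 pocket proteins and subunits of the MuvB core, which together hold E2F targets silent, 3 rose and 1 fell against EtOH controls, beside 13.0% and 14.2% of all genes (median 0.19; 4 rose and none fell with library totals, and 2 rose without EtOH replicate 3 or KO replicate 1). Rbl2, which encodes the pocket protein p130, had 9.38, 8.66 and 9.92 CPM in EtOH controls, 22.9, 19.8 and 22.5 CPM in KO-labelled libraries and 11.1, 9.81 and 9.89 CPM in 4OHT controls. KO-labelled libraries were above both controls (log2 fold change 1.23 against EtOH controls, SE 0.10, adjusted p = 1.56e-07; 1.08 against 4OHT controls, adjusted p = 3.86e-07). Rb1, the retinoblastoma gene, went from 21.6 ± 1.76 to 38.2 ± 5.01 CPM (0.82, SE 0.13, adjusted p = 0.000422). Rbbp4, a chromatin protein shared by several complexes, fell by 0.19 (adjusted p = 0.00754; 0.062 with library totals). With 4OHT controls as the reference 4 of the 8 rose and 1 fell (none fell with library totals), beside 19.1% and 19.8% of all genes.

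Of 9 other E2F and DP factors 5 fell and none rose against EtOH controls, beside 14.2% and 13.0% of all genes (median -0.21). E2f4, which works mainly with the pocket proteins as a repressor, fell by 0.36 from 141 ± 2.87 to 110 ± 3.28 CPM (adjusted p = 0.00014), and Tfdp1 (-0.32) and Tfdp2 (-0.36), the DNA-binding partners of E2F factors, fell with it. In 4OHT controls E2f4 and Tfdp1 rose against EtOH controls by 0.26 and 0.22, the second lost without EtOH replicate 1 (0.063) or 4OHT control replicate 2 (0.061). Between KO-labelled libraries and 4OHT controls 6 of the 9 fell and none rose, beside 19.8% and 19.1% of all genes. These counts were 4 and 1 with library totals and 6 and 1 with the filter at 1 CPM. In the blocked fit they were 6 and 1 too, where 51.4% of all genes changed. They were 4 and none without KO replicate 1 or 4OHT control replicate 2.

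Of 14 genes that activate cyclin-kinase complexes or turn them over, 5 fell and 1 rose against EtOH controls, beside 14.2% and 13.0% of all genes, around a median of -0.01 (0.06 with library totals). Mnat1, the assembly factor of the kinase that activates cyclin-dependent kinases, fell furthest of the genes in these lists. It had 40.1, 43.5 and 43.0 CPM in EtOH controls, 5.05, 6.03 and 4.11 CPM in KO-labelled libraries and 39.5, 42.2 and 41.5 CPM in 4OHT controls. KO-labelled libraries lay far below both controls, which overlapped (log2 fold change -3.05 against EtOH controls, SE 0.10, adjusted p = 2.27e-12; -3.01 against 4OHT controls, adjusted p = 1.98e-12). Of its partners in the complex, Cdk7 fell by 0.16 against EtOH controls (adjusted p = 0.0471), and Ccnh was not called (0.00). The Cdk7 call was lost with DESeq2 (0.054), library totals (0.26), other filters (0.088 and 0.053), a fit of both groups alone (0.066) and 6 of the 9 left-out libraries (0.052 to 0.18). Cdc25a, the phosphatase that removes inhibitory phosphate from Cdk2, and Skp2, which targets p27 for degradation, fell by 0.33 and 0.30 (adjusted p = 0.00052 and 0.000643). In the comparison with 4OHT controls 6 of the 14 fell and 2 rose, beside 19.8% and 19.1% of all genes. These counts were 3 and 3 with library totals and 3 and 1 without KO replicate 1, and 4 fell without a filter on low counts or with KO replicate 3 or 4OHT control replicate 1 or 2 left out. There Cdc25a was not called (-0.09, adjusted p = 0.255). Cdk7 fell (-0.19, adjusted p = 0.014), a call lost with library totals (0.14) and without KO replicate 1 (0.056). Ccnh fell as well (-0.16, adjusted p = 0.044), a call lost with DESeq2 (0.06), library totals (0.31) and most left-out libraries. That call was also lost without a filter on low counts (0.10), with the filter at 1 CPM (0.052) and in the fit of both groups alone (0.057). Skp2 fell by 0.16 (adjusted p = 0.0278), a call lost with library totals (0.29), without a filter on low counts (0.076) and without KO replicate 1 (0.086) or 3 (0.074) or 4OHT control replicate 1 (0.067) or 2 (0.078).

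Of 7 genes of the Myc network 2 fell and none rose against EtOH controls, near the 27.2% of all genes that changed. These counts were 4 and 1 with the replicate block, where 42.8% of all genes changed. They were 3 and none without a filter on low counts. With library totals, or with KO replicate 1 or any EtOH replicate left out, they were 1 and none. Mnt fell by 0.27 (adjusted p = 0.00323) and Mxd3 by 0.37 (adjusted p = 0.0383), the second lost with library totals (0.090) and without any of EtOH replicates 1 (0.086), 2 (0.054) and 3 (0.11) or KO replicates 1 (0.075) and 2 (0.12). Max, the partner of Myc proteins, was at -0.16 (adjusted p = 0.117), and was called in the blocked fit (0.00225) or with KO replicate 2 left out (0.018). Among the later cyclins Ccna2, the S phase cyclin, fell by 0.25 (adjusted p = 0.00134) and Cdk1 was not called (-0.07, adjusted p = 0.419; 0.00 with library totals). The germ cell cyclin Ccna1 rose by 0.93 from 1.06 ± 0.31 CPM (adjusted p = 0.0182), a call lost without EtOH replicate 2 (0.11), KO replicate 1 (0.060) or KO replicate 3 (0.061).

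In KO-labelled libraries relative to 4OHT controls 2 of the 7 Myc network genes fell and 1 rose (none fell and 2 rose with library totals), where 38.9% of all genes changed. Max fell by 0.26 (adjusted p = 0.0103), lost with library totals (0.060) and without 4OHT control replicate 2 (0.053). Mnt fell by 0.19 (adjusted p = 0.0203), lost with library totals (0.18) and without KO replicate 1 (0.056) or 2 (0.051) or 4OHT control replicate 3 (0.073), and Mxd3 was not called (-0.19, adjusted p = 0.266). Of the later cyclins and their kinase, Ccna2 fell by 0.21 (adjusted p = 0.00259) and Ccna1 rose by 2.08 (adjusted p = 8.85e-05). Cdk1 fell by 0.17 (adjusted p = 0.0368), lost with library totals (0.28), when only both groups were fitted (0.059) and without KO replicate 1 (0.094) or 3 (0.13) or 4OHT control replicate 2 (0.18). In 4OHT controls Ccna1 fell by 1.15 against EtOH controls (adjusted p = 0.0317). That call was lost without EtOH replicate 1 (0.14) or 3 (0.069) or 4OHT control replicate 2 (0.11) or 3 (0.074).

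Of the 35 genes known as E2F targets 25 fell and 10 were not called against EtOH controls, where 14.2% of all genes fell, with a median of -0.21. The count of falls was 17 with library totals, 18 without KO replicate 1 and 31 in the blocked fit. Over all genes tested, 1527 of 16224, 1756 of 16326 and 3625 of 16224 fell in those settings. The smallest p-values were those of Tk1, which makes thymidine phosphate (-0.61, adjusted p = 8.61e-06), the polymerase subunit Pola1 (-0.36, adjusted p = 5.36e-05) and the repair gene Brca1 (-0.33, adjusted p = 0.000101). Versus 4OHT controls 16 fell and 1 rose, beside 19.8% and 19.1% of all genes (median -0.13). With library totals 10 fell, beside 2328 of all 16224 genes, and in the blocked fit 20 fell, beside 4198. Brca1 was not called against 4OHT controls (-0.06, adjusted p = 0.352), and its value was 0.02 with library totals. In 4OHT controls against EtOH controls 8 fell and 1 rose, beside 8.75% and 9.66% of all genes. With the replicate block 14 fell and 4 rose, where 2569 of all 16224 genes fell and 2754 rose. The 8 falls of the main fit became 3 without EtOH replicate 2 or 3 or 4OHT control replicate 1. They became 4 without 4OHT control replicate 3.

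**Figure D5:**
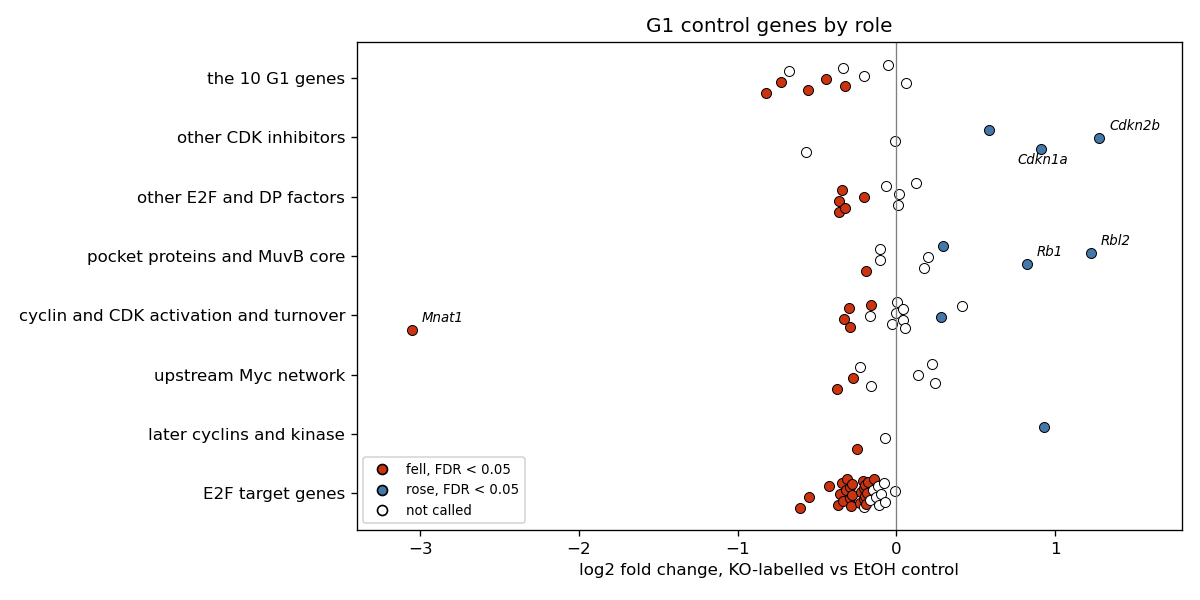
Log2 fold change of KO-labelled libraries against EtOH controls (horizontal axis) for each tested gene, in rows by role; red points fell, blue points rose and open points were not called. Mnat1 lies apart at -3.05, inhibitors and pocket proteins reach 1.28 and 1.23, and all 35 E2F targets lie below 0 (33 with library totals).

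By the root mean square difference of log2 CPM centred over the 9 libraries, the genes most like Cdk2 of 11038 compared were Slc6a15 (0.04), Uba3 (0.05) and Fam98b (0.06). Nearest to Cdk6 were Tst (0.08), Bms1 (0.09) and Hpdl (0.10). Nearest to Ccnd2 were Enpp2 (0.17), Maml2 (0.20) and Tdrd12 (0.21), which follow it less closely. For comparison, the values of these 3 genes about their own means were 0.30 for Cdk2, 0.36 for Cdk6 and 0.50 for Ccnd2.

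All 10 markers of ES cells were above 1 CPM, and they summed to 4189 to 4468 CPM in EtOH controls, 4074 to 4523 in KO-labelled libraries and 4363 to 5080 in 4OHT controls. Of 6 markers of primitive endoderm 4 were above 1 CPM. The list summed to 6.25 to 9.69, 11.0 to 14.4 and 6.78 to 7.83 CPM in the same order. Of the 5 tested 3 rose against either control, beside 13.0% of all genes against EtOH controls and 19.1% against 4OHT controls. Sox17 had 6 to 8 counts per library in EtOH controls, 13 to 19 in KO-labelled libraries and 3 to 8 in 4OHT controls. It thus passed the filter on low counts only through KO-labelled libraries, and its test gives no support for a rise of the list. The 6 mesoderm markers (3 above 1 CPM) summed to 9.98 to 13.8, 12.0 to 13.8 and 10.2 to 14.5 CPM, the neural markers (3 of 5 above 1 CPM) to 131 to 153, 125 to 138 and 146 to 164 CPM, and the 6 fibroblast markers (4 above 1 CPM) to 18.8 to 23.0, 22.6 to 23.9 and 18.4 to 19.0 CPM. No marker with a row was at 0 in all libraries. In KO-labelled libraries 1 of the 10 ES cell markers fell against EtOH controls and 4 against 4OHT controls (14.2% and 19.8% of all genes). None of the mesoderm, neural or fibroblast markers was called against EtOH controls, where 27.2% of all genes were. Against 4OHT controls 3 of 4 neural markers tested fell, and of 4 fibroblast markers 2 rose and 1 fell. Over all genes 19.8% fell and 19.1% rose in that comparison. The part of other cell types in the results was not tested.

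Some of the 10 genes share exons with a gene on the other strand, and how the counting treated strand is unknown here, so these are uncertain to that extent. Ccnd1 shares 1100 of 4709 exonic bases with LTO1, which had 7.65 CPM in EtOH controls and rose by 0.48. Ccne2 shares 609 of 3495 bases with Ints8, which fell by 0.26 from 91.9 CPM (adjusted p = 0.00143). Cdk4 shares 641 of 3249 bases with Tspan31 (34.3 CPM, log2 fold change -0.05) and Ccnd3 361 of 8775 with Bysl (116 CPM, -0.04). Cdk2 shares 34 of 6219 bases with Pmel, which fell by 0.86 from 10.6 CPM. Ccnd2 and Cdk6 share 368 to 372 bases with antisense transcripts. The near copy Ccnd3-ps, 96.3% identical over 881 bases, was counted at 0.05 to 0.11 CPM, and 4 near copies of Cdk6, at most 92.3% identical, had no row matched by symbol.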

How the data were processed

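Each deposited file lists whole-number read counts for Ensembl genes, with no normalization by the authors as far as the values show, from ribosomal RNA-depleted directional libraries per the labels' protocols. The submitters' processing notes name cutadapt, STAR, HTSeq, edgeR, Bowtie 1.1.2, MACS2 and DiffBind and the build mm9, without roles. Closing rows that name no gene (26.4% to 33.8% of reads without a feature, 0.78% to 0.91% ambiguous) stayed out of library totals and tests. Symbols were matched by Ensembl id (32620 of 37310 rows matched). Exon lengths came from GENCODE M21, another build, so coordinates are given for the RefSeq promoter windows only.

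The main test was edgeR 4.0.16 (limma 3.58.1, R 4.3.3): robust quasi-likelihood F tests, TMM scaling, filterByExpr, 1 fit of all 9 libraries (6 residual degrees of freedom) and Benjamini-Hochberg adjustment over 16224 genes. "Rose" and "fell" mean an adjusted p under 0.05. The fit was tested on simulated data. Alternatives were DESeq2 1.42.0, RLE factors, library totals, other filters, the fit of the groups compared, the replicate block and leaving out each library. Per-length shares were also compared within replicate numbers, which was chosen after seeing the data. The genes and lists were chosen with earlier results of these data known. Genes named from lists were the 3 with the smallest p against EtOH controls, plus partners named beside them after their values were seen.

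All groups share replicate numbers. Deviations from group means, over all tested genes, correlated at 0.11 to 0.31 in the 9 pairs with the same number and -0.23 to -0.02 in the 18 others, so the numbers pair the libraries. The main fit had no block, so the variation shared by replicate number stayed in its residual spread. Its p-values take no account of the pairing. Calls that the block changed are given with its values. Libraries of a group differed by more than sampling noise (chi-square per gene 4.99 to 16.8, highest in pairs with KO replicate 3).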

Additional observations from a re-analysis of the deposited data

How the results depend on the processing

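The direction of the 5 falls against EtOH controls held under every alternative run, and the number of the 10 genes called ranged from 4 to 6 when a library was left out, from 5 to 9 against 4OHT controls and from 4 to 6 between the controls. With the replicate block 7, 10 and 7 were called, and over all genes 6936 changed against EtOH controls (4417 without it), 8337 against 4OHT controls (6319) and 5323 between the controls (2987). Beyond the calls given above, the block also called Tfdp2 (adjusted p = 0.018), Rb1 (0.021) and Skp2 (0.012) lower in 4OHT controls than in EtOH controls, and it changed no other call of the 10 genes or of the genes named from the lists by the rule. Leaving out a library gave 3067 to 4559, 5011 to 6268 and 1974 to 3069 genes in those comparisons, lowest without EtOH replicate 2, KO replicate 1 and EtOH replicate 2. Values that changed sign were not called. With library totals they were Cdk4 (0.019) and Cdk1 (0.0014) against EtOH controls and Brca1 (0.024) against 4OHT controls. With 1 library left out, E2f1 ranged from -0.021 to 0.116 against EtOH controls. Between the controls the ranges were -0.110 to 0.033 for Ccnd3, -0.109 to 0.035 for Ccne1, -0.131 to 0.084 for Cdkn2a, -0.54 to 0.094 for Cdkn2b and -0.039 to 0.0035 for Rbbp4. The cause of these changes was not tested. Counts were low for Cdkn2b, Cdkn2a and Ccna1, with group means of 1.06 to 3.71 CPM in the comparison with EtOH controls and standard errors of 0.20 to 0.27. Ccnd2 had errors of that size (0.24) at far higher counts.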
